A study of Drosophila melanogaster and Drosophila yakuba and Drosophila virilis with 6 samples.

Results

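Transcripts of the eye-antennal imaginal disc of Drosophila virilis were compared with those of the wing imaginal disc of the same species, gene by gene. Tags were summed for each D. virilis gene, and the 6195 genes that reached 50 tags when the libraries were added, of 13446 genes with any tag, were measured. The study counted transcripts by Illumina tag profiling, in which a short tag next to a site of the restriction enzyme NlaIII is sequenced, in both discs of 3 Drosophila species, 1 library for each of the 6 combinations. Both D. virilis discs were taken from larvae that had begun to wander in the last instar, with no treatment and no strain named. The labels do not say how many discs were pooled or whether attached tissue was removed.

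Imaginal discs are epithelial sacs in the larva that form adult body parts at metamorphosis. The eye-antennal disc forms the eye, the antenna and much of the head capsule, and in the last instar photoreceptors are already differentiating in it, so it holds young neurons as well as glia that enter from the brain. The wing disc forms the wing blade, its hinge and the notum, the back of the thorax, and carries the precursors of the flight muscles and a branch of the trachea. In both discs a small number of transcription factors set the identity of each region, and the Notch, EGFR, Hedgehog, Dpp and Wnt pathways pattern it.

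The eye-antennal library held 2065918 tags and the wing library 3132492 tags, of which 2002027 and 3093694 lay on genes. Values are tags per 1000000 of the library size scaled by TMM (CPM), which takes the bulk of the genes as the common level, and a count of 0 allows up to 1.38 CPM in eye-antennal and 1.06 CPM in wing discs. With 1 library for each disc no difference had a replicate check and no p-value is given. Brackets after a fold hold its exact conditional binomial (Clopper-Pearson) 95% interval, which covers counting error only, and where a library had no tag of a gene the fold is given as at least its value with 3 tags there. A gene is called eye-antennal-enriched or wing-enriched where the end of that interval closest to 1 still reached 2-fold. The eye-antennal library was the smaller but reached more genes: 13156 genes had a tag there against 10725 in the wing library, and 4198 against 2582 genes had no more than 5 tags but at least 1. Positions with a single tag made up 55.1% of the eye-antennal and 36.5% of the wing positions on genes. The disc labels matched their defining genes: the 10 retinal determination genes summed to 1992 CPM in eye-antennal and 123 CPM in wing discs, while vg, the selector gene of the wing, had 1.83 eye-antennal and 51.1 wing CPM. As a whole, the list of wing pouch and margin genes that holds vg differed less. It summed to 867 CPM in eye-antennal and 1607 CPM in wing discs, 1.85-fold higher in the wing library.

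Of the 6195 measured genes, 221 (3.57%) were eye-antennal-enriched and 348 (5.62%) wing-enriched, together 9.18%. The median log2 fold over all measured genes was -0.12 and single genes ran from -11.64 to 10.97. Scaling by the total of gene tags instead shifts all log2 folds by 0.25 and gives 277 eye-antennal-enriched and 265 wing-enriched genes, and a minimum of 10 tags gives 599 eye-antennal-enriched and 412 wing-enriched genes, so which disc has more such genes depends on the scaling and on the minimum count. Steep differences made up a larger share of the eye-antennal genes: 63 of 221 had a bound of at least 10-fold and 24 had no tag in the wing library, against 65 of 348 and 7 with no eye-antennal tag on the wing side. Zeros were unequal over all 13446 genes with a tag as well, with 2721 lacking a wing tag and 290 an eye-antennal tag. The eye-antennal-enriched genes made up 3.47% of the gene tags of the eye-antennal and 0.625% of those of the wing library. The wing-enriched genes made up 3.44% of eye-antennal and 12.2% of wing gene tags. Among the 666 most abundant genes, those with 1000 tags or more, 11 (1.65%) were eye-antennal-enriched and 60 (9.01%) wing-enriched.

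**Figure D1:**
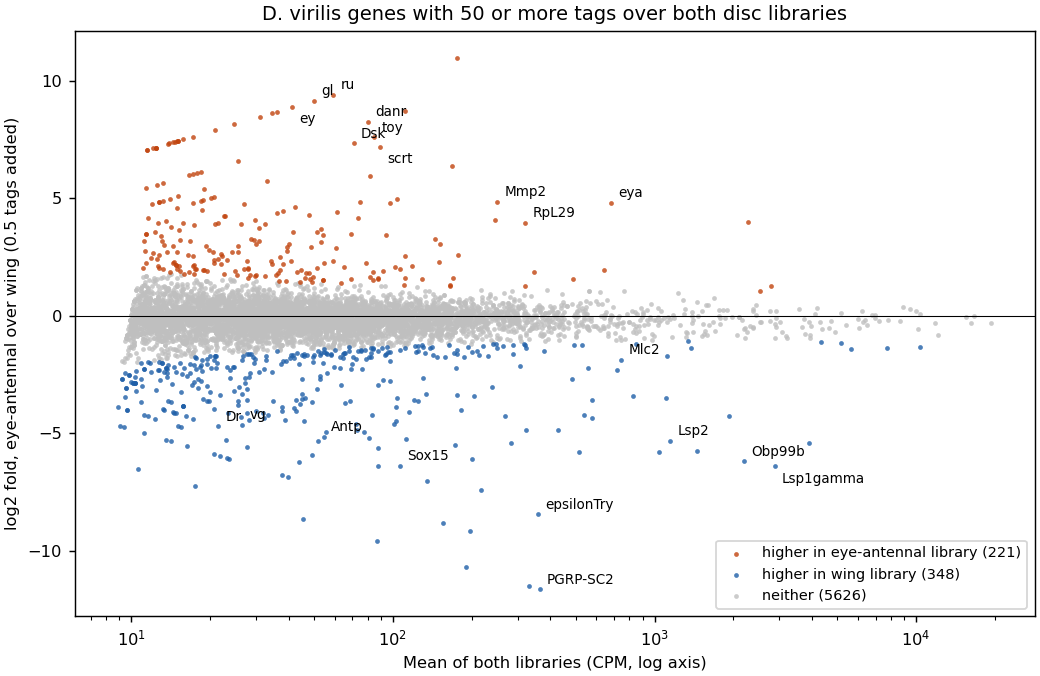
Log2 fold (eye-antennal over wing) of each of the 6195 measured genes against the mean CPM of both libraries on a log axis, with eye-antennal-enriched and wing-enriched genes in colour. The 221 eye-antennal genes lie mostly at low CPM, and the wing genes extend to the most abundant transcripts.

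The eye-antennal side was led by the retinal determination network, the transcriptional regulators that commit cells to an eye. Of its 10 members, all measured, 8 were eye-antennal-enriched and 0 wing-enriched, with a median log2 fold of 3.86 against -0.12 over all measured genes. The Pax family factors at the top of the network had next to no wing tags: ey had 82.04 eye-antennal and 0 wing CPM and was at least 77.6-fold higher, and its relative toy had 169 eye-antennal and 0.705 wing CPM. eya, a phosphatase that acts as a transcriptional coactivator, was the most abundant member, with 1321 eye-antennal and 47.2 wing CPM, a difference of 27.98-fold (23.5–33.5). Its homeodomain partner so had 86.2 eye-antennal and 11.3 wing CPM and was 7.64-fold (5.23–11.5) higher, and the related homeodomain gene Optix had 21.1 eye-antennal and 3.17 wing CPM. The nuclear factor dac had 46.3 eye-antennal and 9.16 wing CPM, a smaller difference of 5.05-fold (3.26–8.11). Wing tags were thus near 0 for ey and toy and present at a lower level for so, dac and Optix. In libraries of whole discs, more cells of a type and more RNA per cell cannot be told apart. The 2 members that were not enriched, eyg and toe, are Pax family genes that are also used in the notum, and they had 34.8 eye-antennal and 36.6 wing CPM and 9.63 eye-antennal and 14.4 wing CPM.

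Genes that act later, as photoreceptors are recruited into ommatidia, differed in the same direction over a wider range. Of 18 measured members of that list 9 were eye-antennal-enriched and 0 wing-enriched. With the minimum lowered to 10 tags the counts were 16 and 0 of 28, against 6.76% and 4.65% of all 8864 genes at that minimum. ru, a rhomboid protease that releases EGFR ligands, had 258 eye-antennal and 0 wing tags, and gl, a zinc finger factor required for photoreceptor identity, had 217 eye-antennal and 0 wing tags. Those were differences of at least 112-fold for ru and at least 94.1-fold for gl. The receptor tyrosine kinase gene sev, which specifies the R7 photoreceptor, had 35.8 eye-antennal and 1.06 wing CPM, and pros, a homeodomain gene of R7 and cone cells, had 24.8 eye-antennal and 0 wing CPM. Each of these 4 was at or close to 0 in the wing library. Regulators with functions in both discs differed less. The ETS factor gene pnt had 72.4 eye-antennal and 20.4 wing CPM, a difference of 3.54-fold (2.61–4.88), and sca, which encodes a secreted protein that spaces the founder photoreceptors, had 71.96 eye-antennal and 24.3 wing CPM, a difference of 2.96-fold (2.22–3.99). The homeobox gene B-H1 was 5.75-fold (3.87–8.79) higher and the zinc finger gene peb 11.3-fold (4.85–32.1) higher. The EGFR ligand gene spi and the repressor gene aop were not enriched, at 49.96 eye-antennal and 41.6 wing CPM for spi and 232 eye-antennal and 219 wing CPM for aop.

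Few genes of the mature photoreceptor reached 50 tags. Of 33 phototransduction genes 25 had a tag, summing to 192 CPM in eye-antennal and 96.9 CPM in wing discs, and 3 were measured, 2 of them eye-antennal-enriched. The enriched pair was inaC and santa-maria, while Galphaq, a G protein subunit gene, was found in both discs with 122 eye-antennal and 165 wing tags. inaC, the eye-specific protein kinase C, had 60 eye-antennal and 0 wing tags and santa-maria, a scavenger receptor used for carotenoid uptake, had 63 eye-antennal and 0 wing tags. The rhodopsins did not follow them: ninaE had 1 eye-antennal and 0 wing tags, Rh4 had 10 eye-antennal and 4 wing tags, Rh5 had 8 eye-antennal and 7 wing tags and Rh6 had 16 eye-antennal and 8 wing tags. Of 14 measured eye pigment genes 0 were eye-antennal-enriched and 1 wing-enriched. That gene was Hn, phenylalanine hydroxylase, with 1 eye-antennal and 50 wing tags.

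Of 19 measured Notch pathway genes 5 were eye-antennal-enriched and 1 wing-enriched, and 3 of those 5 were E(spl) target genes. In the list of E(spl) repressors and Bearded-family genes, which Notch signalling and proneural factors switch on, 5 of 11 measured members were eye-antennal-enriched and 1 was wing-enriched, with a median log2 fold of 1.09. E(spl)mgamma-HLH differed most, with 201 eye-antennal and 6.34 wing CPM and a difference of 31.7-fold (19.8–54.05). E(spl)mdelta-HLH had 124 eye-antennal and 39.1 wing CPM, and the Bearded-family genes E(spl)m4-BFM and Ocho were 6.07-fold (5.06–7.33) and 3.51-fold (2.60–4.81) higher in eye-antennal discs. E(spl)m8-HLH was 2.36-fold (2.13–2.63) higher, but its remaining positions gave a log2 fold of -0.11 when its most used position was left out. The exception was E(spl)m6-BFM, with 7.79 eye-antennal and 39.8 wing CPM, which was 5.11-fold (3.05–9.08) higher in the wing library. Upstream, the ubiquitin ligase gene neur, needed to activate Notch ligands, was 3.41-fold (2.20–5.43) higher in eye-antennal discs at 34.8 eye-antennal and 10.2 wing CPM. Ser, a Notch ligand that acts at the dorsoventral boundary of the wing, went the other way, with 108 eye-antennal and 355 wing CPM, and was 3.30-fold (2.86–3.82) higher in the wing library.

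Of 11 measured antennal identity genes 6 were eye-antennal-enriched, 0 were wing-enriched, and the median log2 fold was 1.496. Of these 6, dan, danr and dac are also counted among the 8 enriched retinal determination genes. The related nuclear genes dan and danr, which act in both eye and antenna, had 135 eye-antennal and 0 wing tags and 350 eye-antennal and 1 wing tags. The LIM-homeodomain gene Lim1 had 95.3 eye-antennal and 10.6 wing CPM and was 9.02-fold (6.13–13.7) higher, and the homeodomain gene ct was 4.41-fold (2.57–7.93) higher at 27.96 eye-antennal and 6.34 wing CPM. The zinc finger gene disco had 79.8 eye-antennal and 28.2 wing CPM and was 2.83-fold (2.16–3.74) higher. Genes that are used in both appendages were not enriched in either: Dll, which specifies distal limb fates, had 47.2 eye-antennal and 53.5 wing CPM, hth had 221 eye-antennal and 207 wing CPM and ss had 22.9 eye-antennal and 14.1 wing CPM. Among the Hox genes, Dfd, which specifies part of the head, had 39 eye-antennal and 0 wing tags, below the minimum of 50, and lab had 6 eye-antennal and 0 wing tags.

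**Figure D2:**
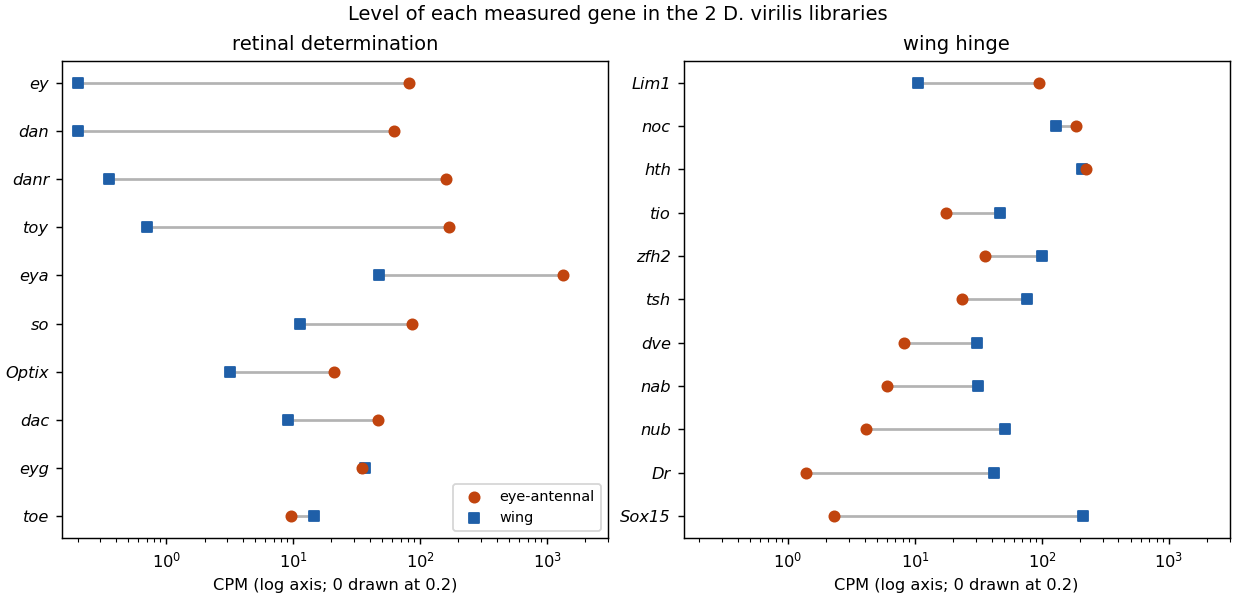
CPM of the 10 retinal determination genes (left) and the 11 measured hinge genes (right) in the eye-antennal library (circles) and the wing library (squares), 1 row for each gene, on a log axis with 0 drawn at 0.2. Of the retinal genes 8 lie well to the right in the eye-antennal library, and 7 hinge genes, from zfh2 to Sox15, lie to the right in the wing library.

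Genes of differentiating neurons were the second large group on the eye-antennal side. Of 12 measured neuronal differentiation genes 7 were eye-antennal-enriched and 0 wing-enriched, with a median log2 fold of 2.60. scrt, a zinc finger repressor of non-neuronal fates, had 177 eye-antennal and 1.06 wing CPM, a difference of 167-fold (56.9–815). Appl, the amyloid precursor protein homologue, had 160.4 eye-antennal and 2.47 wing CPM and was 65.1-fold (31.2–163) higher, and fne, an RNA-binding protein of the ELAV family, was 16.9-fold (6.89–53.8) higher. The adhesion genes CadN and Nrt were 9.26-fold (5.55–16.4) and 4.11-fold (3.03–5.64) higher. They were the only enriched members among 27 measured axon guidance and neural adhesion genes. None of that list was wing-enriched, and its median log2 fold was 0.09. nSyb, the neuronal synaptobrevin of synaptic vesicles, was 15.7-fold (8.51–32.3) higher at 60.96 eye-antennal and 3.87 wing CPM. elav itself, the common neuronal marker, was not enriched, at 185 eye-antennal and 98.6 wing CPM and a difference of 1.87-fold (1.60–2.19). Neuronal transcripts thus ranged from nearly absent to plentiful in the wing library.

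Synaptic and peptide genes showed the same direction at lower levels. Among 8 measured synaptic genes 4 were eye-antennal-enriched and 0 wing-enriched, namely nSyb, the synaptotagmin gene Syt4 with 108 eye-antennal and 0 wing tags, the dopamine transporter gene DAT with 72 eye-antennal and 1 wing tags and the neurexin gene Nrx-1 with 45 eye-antennal and 13 wing tags. Of 12 measured neuropeptide and hormone genes 6 were eye-antennal-enriched and 2 wing-enriched, with the sulfakinin gene Dsk at 141 eye-antennal and 0.705 wing CPM and the adipokinetic hormone gene Akh at 157 eye-antennal and 0 wing tags. The processing enzymes of such peptides were among them: amon, a prohormone convertase, had 57 eye-antennal and 1 wing tags, its helper 7B2 had 75 eye-antennal and 20 wing tags, and the carboxypeptidase gene svr had 59 eye-antennal and 22 wing tags. The wing-enriched pair was Nplp4 and CCHa2. Nplp4 had 87.5 eye-antennal and 1069 wing CPM, a difference of 12.2-fold (10.6–14.2), and CCHa2, a peptide made in fat body and gut, had 5 eye-antennal and 51 wing tags. Akh is made in the corpora cardiaca, an endocrine gland that lies beside the brain and not in the disc.

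Brain markers were counted as well, although this list is not separate from the others: all 21 of its members with a tag also stand in a neuronal, synaptic, glial or neuropeptide list, and its 2 enriched members, Dsk and sNPF, in the neuropeptide list. Of these 21 brain and central nervous system markers with a tag, 13 had 0 wing tags, against 2721 of all 13446 genes with a tag. Of the 4 measured, 2 were eye-antennal-enriched and 0 wing-enriched. The whole list summed to 568 CPM in eye-antennal and 171 CPM in wing discs. The insulin-like peptide genes of a small set of brain neurons were detected, with 34 eye-antennal and 0 wing tags for Ilp2 and 16 eye-antennal and 0 wing tags for Ilp5, as was Gad1, the enzyme that makes the transmitter GABA, with 44 eye-antennal and 0 wing tags. The peptide gene Hug had 40 eye-antennal and 0 wing tags. Ring gland genes that make ecdysone did not differ in this way: dib had 116 eye-antennal and 98.6 wing CPM, phtm had 3 eye-antennal and 8 wing tags and spok had 3 eye-antennal and 0 wing tags. The part of brain RNA in the neuronal, synaptic and peptide differences was not tested.

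Glial genes were split. Of 19 measured members 5 were eye-antennal-enriched, 0 were wing-enriched, and the median log2 fold was 0.06. Mdr65 and moody, a transporter and a receptor of the glial blood-brain barrier, had 24.8 eye-antennal and 0.705 wing CPM and 38.04 eye-antennal and 6.34 wing CPM. loco, a regulator of G-protein signalling in glia, was 3.59-fold (2.53–5.16) higher, and bdl, an adhesion protein of wrapping glia in the eye disc, was 7.61-fold (4.995–12.02) higher at 69.7 eye-antennal and 9.16 wing CPM. repo, the nuclear marker of glia, had 3 eye-antennal and 0 wing tags and was too low to compare. Sdr, a secreted protein that binds insulin-like peptides and is made by glia, stands in the ring gland list and not in the glial list. It had 81.1 eye-antennal and 3.17 wing CPM, a difference of 25.6-fold (13.2–56.9).

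The extracellular matrix gave a pair of steep eye-antennal differences among abundant transcripts. Mmp2, a matrix metalloproteinase, had 484 eye-antennal and 16.6 wing CPM and was 29.2-fold (21.8–40.04) higher, and Loxl1, a lysyl oxidase that cross-links collagen, had 189 eye-antennal and 6.69 wing CPM and was 28.2-fold (17.8–47.3) higher. vkg, a collagen IV chain gene that also stands in the hemocyte list, was higher in the wing library, with 23.4 eye-antennal and 115 wing CPM and a difference of 4.93-fold (3.66–6.76), and so was the matrix protein gene Ppn at 38.04 eye-antennal and 109 wing CPM. The other collagen IV chain gene, Col4a1, was not enriched, with 30 eye-antennal and 112 wing tags. With scaling by total gene tags Ppn no longer reached the bound of 2-fold. Tetraspanins, membrane proteins that organise other proteins, gave 1 eye-antennal-enriched and 7 wing-enriched genes of 19 measured, in a list written after the values had been seen. Tsp66E, the eye-antennal-enriched one, had 30.3 eye-antennal and 3.17 wing CPM, and Tsp42Ec, on the wing side, had 4.13 eye-antennal and 71.5 wing CPM.

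On the wing side the region-specific regulators of the disc were found in all 3 of its main territories. In the wing pouch and margin list, which covers the future blade, 2 of 23 measured members were eye-antennal-enriched and 8 wing-enriched, with a median log2 fold of -0.79. vg, which forms the wing selector complex with its partner sd, was 27.9-fold (10.7–104) higher in the wing library. The POU factor gene nub had 4.13 eye-antennal and 51.4 wing CPM and was 12.5-fold (6.39–27.8) higher, and the related pdm2 had 5 eye-antennal and 56 wing tags. The muscle segment homeobox gene Dr, a dorsal factor, had 1.38 eye-antennal and 41.6 wing CPM, a difference of 30.2-fold (10.1–149). The eye-antennal-enriched members were ct and rho, which also act in the antenna and in photoreceptor recruitment. Posterior and midline genes of the Hedgehog list were among the wing-enriched ones: en had 5.04 eye-antennal and 28.5 wing CPM, inv had 45.8 eye-antennal and 142 wing CPM and kn had 4.13 eye-antennal and 34.9 wing CPM, and they were 5.66-fold (3.001–11.8), 3.09-fold (2.48–3.89) and 8.45-fold (4.28–19.03) higher. The pathway's own components were level, with hh at 45.4 eye-antennal and 46.5 wing CPM, its receptor gene ptc at 87.5 eye-antennal and 80.7 wing CPM and its effector gene ci at 159.5 eye-antennal and 152 wing CPM. The Wnt list gave 1 eye-antennal-enriched and 1 wing-enriched gene of 18, the wing-enriched one being Apc2, of the complex that degrades beta-catenin, with 24 eye-antennal and 151 wing tags. The Dpp and activin list gave 0 and 1 of 17.

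The hinge list held a larger share of wing-side genes, with 1 of 11 measured members eye-antennal-enriched, 7 wing-enriched and a median log2 fold of -1.69. Sox15, a Sox family factor of the hinge, had 2.29 eye-antennal and 209.9 wing CPM and was 91.6-fold (39.04–283) higher. The zinc finger genes tsh and zfh2 had 23.4 eye-antennal and 76.1 wing CPM and 35.8 eye-antennal and 100.4 wing CPM, differences of 3.26-fold (2.39–4.51) and 2.81-fold (2.18–3.66). nab, a transcriptional cofactor, was 5.26-fold (2.93–10.3) higher, and the homeodomain gene dve was 3.71-fold (2.22–6.56) higher at 8.25 eye-antennal and 30.6 wing CPM. With scaling by total gene tags 5 members were wing-enriched, dve being one of those lost, and dve was also lost in the genome mapping. Notum genes gave 0 eye-antennal-enriched and 4 wing-enriched genes of 17 measured, with a median log2 fold of -1.05. The T-box genes Doc1 and Doc3 had 15.1 eye-antennal and 90.2 wing CPM and 12.8 eye-antennal and 46.5 wing CPM. ara, of the Iroquois group that specifies the notum and its bristles, had 23.8 eye-antennal and 159 wing CPM and was 6.68-fold (5.01–9.08) higher. Antp, the Hox gene of the second thoracic segment, had 2.75 eye-antennal and 106 wing CPM and was 38.6-fold (17.5–106) higher in the wing library.

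Genes of the precursors of flight muscle went both ways. Of 28 myoblast genes 22 had a tag and 15 were measured, with 3 eye-antennal-enriched, 2 wing-enriched and a median log2 fold of 0.30. The wing-enriched members were vg and E(spl)m6-BFM. Of the muscle regulators, twi had 2 eye-antennal and 31 wing tags, nau 1 eye-antennal and 18 wing tags, Him 8 eye-antennal and 35 wing tags and Mef2 30 eye-antennal and 82 wing tags, while zfh1 had 9 eye-antennal and 0 wing tags. The fusion genes blow, kirre and rst, which join myoblasts, were not enriched in either disc, with 517 eye-antennal and 480 wing tags for blow, 180 eye-antennal and 156 wing tags for kirre and 55 eye-antennal and 38 wing tags for rst. The 3 eye-antennal-enriched members, ct, CadN and gsb-n, are also used in neural or sensory tissue, and gsb-n had 50 eye-antennal and 0 wing tags.

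Cuticle genes divided by member. Of 78 cuticle protein genes with a tag 15 were measured, 3 of them eye-antennal-enriched and 7 wing-enriched, with a median log2 fold of -1.70. At a minimum of 10 tags the counts were 7 eye-antennal-enriched and 8 wing-enriched of 28, with a median log2 fold of -0.32. Over all 78 genes 2 had 0 eye-antennal tags and 38 had 0 wing tags. Among all 13446 genes with a tag these numbers were 290 and 2721. Cpr49Ac had 12.4 eye-antennal and 218 wing CPM and was 17.6-fold (11.99–26.96) higher in the wing library, Edg91 was 11.6-fold (8.28–16.8) higher, and Cpr51A was the most abundant at 197 eye-antennal and 914 wing CPM. In the other direction Cpr72Ea had 111 eye-antennal and 1 wing tags, TwdlE, of the Tweedle family, had 190.2 eye-antennal and 32.4 wing CPM, and Lcp65Ad had 98.1 eye-antennal and 19.7 wing CPM. The chitinase gene Cht7 was also 4.67-fold (2.88–7.87) higher in eye-antennal discs. Genes of chitin synthesis, the apical matrix and the septate junction otherwise gave few differences, with 0 in either direction among 24 septate junction and adhesion genes.

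**Figure D3:**
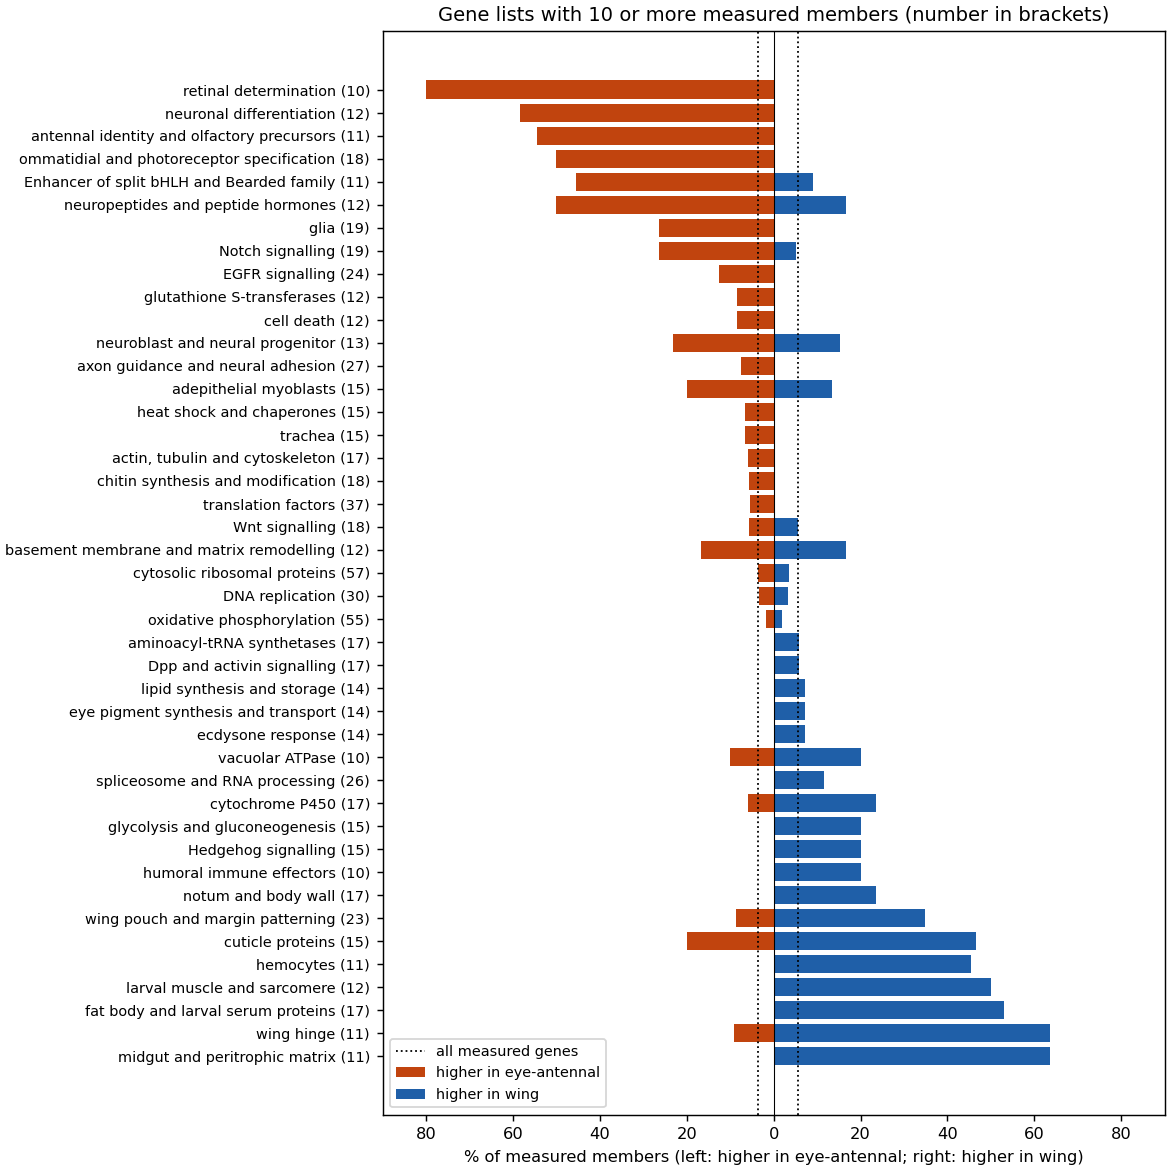
Share of measured members that were eye-antennal-enriched (left) and wing-enriched (right) for gene lists, with the number of measured members beside each name and the share over all measured genes as a line (3.57% and 5.62%). Eye, antennal and neuronal lists stand out on the left, and hinge, pouch, fat body and midgut lists on the right.

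Transcripts of larval organs other than discs formed a further wing-side group. Fat body genes gave 0 eye-antennal-enriched and 9 wing-enriched genes of 17 measured, and the list summed to 2404 CPM in eye-antennal and 17168 CPM in wing discs. Among the genes of the larval storage proteins, Lsp1gamma had 66.9 eye-antennal and 5701 wing CPM and Lsp2 had 55.9 eye-antennal and 2238 wing CPM. Fbp1, the receptor through which the fat body takes up storage protein, had 8.25 eye-antennal and 157 wing CPM, the lipoprotein gene apolpp had 3.67 eye-antennal and 47.6 wing CPM, and the lipid droplet gene Lsd-1 had 3 eye-antennal and 78 wing tags. Obp99b, an odorant-binding protein gene placed in the fat body list, had 59.1 eye-antennal and 4332 wing CPM, a difference of 73.3-fold (61.6–87.8). Lsp1gamma alone took more wing tags than vg, nub, Antp and Sox15 together.

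Midgut transcripts differed more steeply, and several were at or near 0 in the eye-antennal library. In the midgut and peritrophic matrix list 0 of 11 measured members were eye-antennal-enriched and 7 wing-enriched, with a median log2 fold of -3.57. That median is the value of nub, 1 of the 7, which is also counted in the wing pouch list. PGRP-SC2, a peptidoglycan amidase of the gut, had 0 eye-antennal and 2070 wing tags, the mucin gene Muc18B had 0 eye-antennal and 1081 wing tags, and Peritrophin-15a, of the membrane that lines the gut, had 1 eye-antennal and 1115 wing tags. The mucin gene Muc55B was present in both, at 36.2 eye-antennal and 2044 wing CPM. Among 4 measured digestive protease genes 0 were eye-antennal-enriched and 3 wing-enriched: epsilonTry, a trypsin, had 4 eye-antennal and 2029 wing tags, and Jon65Aiv and Jon44E, of the Jonah chymotrypsin-like group, had 54.5 eye-antennal and 1018 wing CPM and 2 eye-antennal and 61 wing tags. Salivary glue transcripts were close to absent from both, with 4 eye-antennal and 2 wing tags for Sgs3.

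Muscle and blood cell genes were higher in the wing library as well, with smaller folds. Of 12 measured sarcomere genes 0 were eye-antennal-enriched and 6 wing-enriched, and their median log2 fold was -1.10. Tm2, a tropomyosin gene, had 35.8 eye-antennal and 224 wing CPM, a difference of 6.28-fold (4.96–8.05), and the myosin light chain gene Mlc2 had 319 eye-antennal and 1169.9 wing CPM, a difference of 3.66-fold (3.37–3.98). Scaled by total gene tags, 4 of these 12 were wing-enriched. Hemocyte genes gave 0 eye-antennal-enriched and 5 wing-enriched genes of 11 measured, with NimC2, a phagocytosis receptor, at 24 eye-antennal and 165 wing tags, Hml, the hemolectin of plasmatocytes, at 9.63 eye-antennal and 32.1 wing CPM, and PPO2, the prophenoloxidase of crystal cells, at 25.2 eye-antennal and 79.96 wing CPM. With total scaling 3 of the 11 were wing-enriched, Hml and PPO2 being those lost. The immune gene PGRP-SB1 had 1 eye-antennal and 130 wing tags. Of the eye-antennal-enriched genes that belong to any list, 4 of 72 stand in a list of another larval tissue, against 31 of 94 wing-enriched ones. The neuronal, synaptic, glial and neuropeptide lists, the last of which holds Akh, were grouped with the eye lists for this count. Both counts depend on that grouping, and the same share over all measured genes was not counted. In an alternative scaling, members of the fat body, midgut, protease, salivary glue, muscle and hemocyte lists were left out of the TMM factors. That gave the same 221 and 348 genes, but the brain list was not left out. The part of attached larval tissue in the differences of other genes was not tested.

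**Figure D4:**
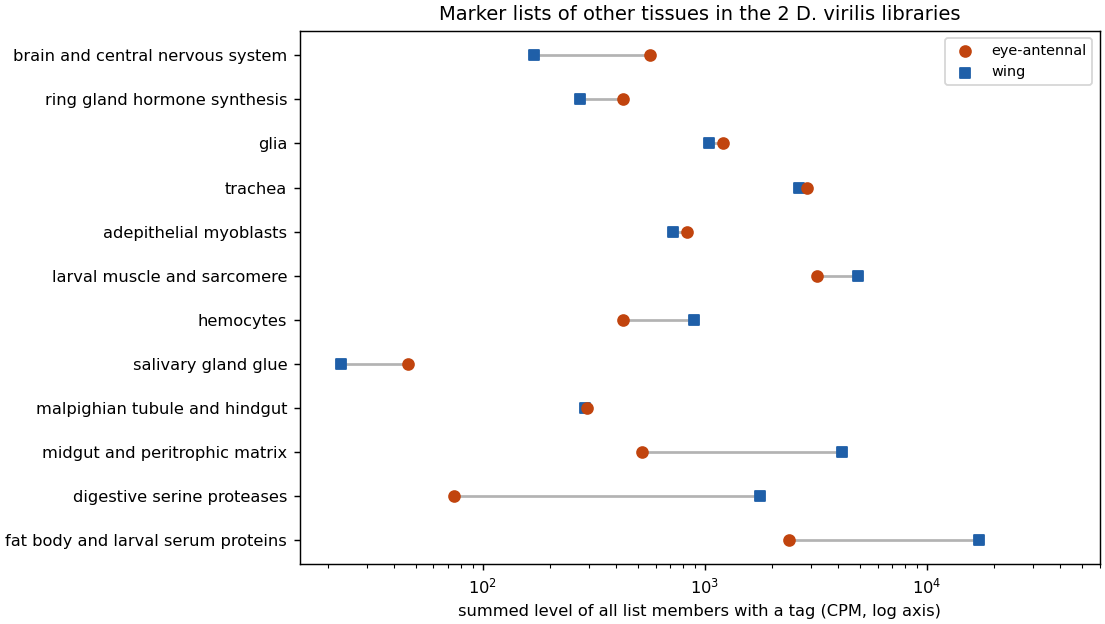
Summed CPM of marker lists of other larval tissues in the eye-antennal and the wing library on a log axis, 1 row for each list. The fat body list sums to 2404 eye-antennal and 17168 wing CPM and the midgut list to 524 eye-antennal and 4148 wing CPM, while the brain list sums to 568 eye-antennal and 171 wing CPM.

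Metabolic and detoxification genes gave scattered differences. Of 15 measured genes of glycolysis and gluconeogenesis 0 were eye-antennal-enriched and 3 wing-enriched: Tpi, triose phosphate isomerase, with 519 eye-antennal and 1720.5 wing CPM, and the phosphoenolpyruvate carboxykinase genes Pepck1 and Pepck2, with 44.9 eye-antennal and 142 wing CPM and 6.42 eye-antennal and 28.2 wing CPM. Of 17 cytochrome P450 genes 1 was eye-antennal-enriched, Cyp6d5 with 66 eye-antennal and 0 wing tags, and 4 were wing-enriched, led by Cyp4d1 at 2.75 eye-antennal and 52.5 wing CPM. Of 12 measured glutathione S-transferase genes 1 was eye-antennal-enriched, GstE2 with 75 eye-antennal and 12 wing tags, and 0 wing-enriched, and of 5 UDP-glycosyltransferase genes 0 were enriched in either disc. Juvenile hormone handling included Jheh3, an epoxide hydrolase that inactivates the hormone, with 4.58 eye-antennal and 70.5 wing CPM, and the hormone-binding protein gene Jhbp14 with 5.04 eye-antennal and 78.9 wing CPM. Wing-enriched amino acid genes were Argl, Gnmt, Hn and P5CS, 4 of 17 measured, with Gnmt, glycine N-methyltransferase, at 2 eye-antennal and 85 wing tags. Of 7 measured serpins, which are protease inhibitors, Spn43Ab was wing-enriched at 10.1 eye-antennal and 126 wing CPM, and of 2 neprilysins, which are membrane peptidases, Nep3 was eye-antennal-enriched with 44 eye-antennal and 6 wing tags. The juvenile hormone, amino acid, serpin and neprilysin lists were also written after the values had been seen.

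The machinery of growth and division differed little between the discs. No gene was enriched in either disc among 24 cell cycle regulators, 41 mitosis genes, 57 mitochondrial ribosomal protein genes, 28 proteasome genes and 24 ribosome biogenesis genes, with median log2 folds of -0.16 for the cell cycle, -0.20 for mitosis and -0.33 for ribosome biogenesis. Hippo pathway, planar polarity, Polycomb and trithorax and JAK/STAT genes likewise gave 0. Single exceptions stood in otherwise level lists. Mcm5, a subunit of the replicative helicase, had 45.8 eye-antennal and 119 wing CPM, while the primase gene Prim2 had 52 eye-antennal and 14 wing tags. Of 26 spliceosome genes 0 were eye-antennal-enriched and 3 wing-enriched, among them SmF with 312 eye-antennal and 749 wing CPM, and of 10 vacuolar ATPase genes 1 was eye-antennal-enriched, VhaAC45RP with 64 eye-antennal and 2 wing tags, and 2 were wing-enriched. Cytosolic ribosomal protein genes had a median log2 fold of -0.28 over 57 measured members, with RpL29 15.6-fold (12.8–19.1) and RpS16 2.38-fold (2.30–2.47) higher in eye-antennal discs and RpS23 2.71-fold (2.64–2.79) and RpL36 2.27-fold (2.21–2.34) higher in the wing library. For RpS16 and RpL36 the remaining positions gave log2 folds of -0.80 and 0.57 once the most used position was left out, opposite in direction to the whole gene. With scaling by total gene tags neither Mcm5 nor RpL36 nor SmF was wing-enriched. The 7 reference genes gave 0 enriched and a median log2 fold of -0.05, with Gapdh1 at 2063 eye-antennal and 2132 wing CPM.

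Most enriched genes belonged to no list, 149 of 221 eye-antennal-enriched and 254 of 348 wing-enriched ones. The same share over all measured genes was not counted, so these counts describe only how far the lists reach. Among those with the steepest eye-antennal differences, dmrt99B, a transcription factor of the doublesex family, had 75 eye-antennal and 0 wing tags, and igl, a calmodulin-binding protein gene, had 66 eye-antennal and 0 wing tags. twit had 352 eye-antennal and 0 wing CPM and CG12911 had 332 eye-antennal and 3.87 wing CPM. On the wing side fon, a gene of the hemolymph clot, had 17.9 eye-antennal and 1015 wing CPM and was 56.8-fold (41.4–79.98) higher.

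Genes without a named D. melanogaster partner carried some of the largest differences. Of the 641 measured genes with no partner in the files, 34 were eye-antennal-enriched and 60 wing-enriched, which is 15.4% and 17.2% of the enriched genes of each disc, against 10.3% of all measured genes. The gene with the largest difference in CPM on the eye-antennal side was one of these, FBgn0210404, with 4268 eye-antennal and 273 wing CPM and a difference of 15.7-fold (14.5–16.9). On the wing side FBgn0198996, at rank 2 by difference in CPM, had 176 eye-antennal and 7599 wing CPM, a difference of 43.3-fold (39.1–48.02). Rank 1 there was FBgn0198612, which has a D. melanogaster partner. Some neighbouring measured genes were enriched in the same disc: 45 of the 221 eye-antennal-enriched genes (20.4%) stood in 22 runs of adjacent genes, and 102 of the 348 wing-enriched genes (29.3%) in 39 runs, so most enriched genes of either disc stood in no run. Of all measured genes 3.57% were eye-antennal-enriched and 5.62% wing-enriched, and a larger set meets more neighbours by position alone. How many runs position alone would give was not tested. The longest run held 7 wing-side genes on scaffold 13049, between positions 3907565 and 3942489 of the deposited coordinates, with Jon65Aiv at 1 end, Jon44E within it, and genes that have no partner in between. A run of 4 on scaffold 12723, from 969884 to 998397, was made of the Nimrod family genes NimB2, NimB3, NimB4 and NimC2. Genes of 1 family in such a run may share tags, and the counts per gene are uncertain there.

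The genome mapping, in which the same libraries were placed on the genome and on D. melanogaster gene identifiers, gave 4282 measured genes, 141 (3.29%) eye-antennal-enriched and 255 (5.96%) wing-enriched. Of the 107 eye-antennal genes measured there 98 (91.6%) were enriched in the same disc, and of 200 wing-side genes 177 (88.5%). No gene was enriched in the opposite disc in the genome mapping, and the median absolute difference in log2 fold was 0.080 over 3654 genes. The sign changed for 2 wing-enriched genes, neither enriched in the genome mapping. Cpsf100 had 525 eye-antennal and 3401 wing tags in the gene mapping but 155 eye-antennal and 178 wing tags in the genome mapping. Hmu went from a log2 fold of -1.60 to 0.10. A further 80 eye-antennal and 88 wing-side genes had fewer than 50 tags there or were absent, among them several photoreceptor genes, so that only 10 members of the ommatidial list were measured, 3 of them eye-antennal-enriched and 2 wing-enriched. pnt was no longer enriched in the genome mapping, and neither were TpnC73F, Mcm5 and Vha100-2. A few genes differed far more between mappings. Tbca, a tubulin folding cofactor, had 1009 eye-antennal and 77 wing tags in the gene mapping but 38 eye-antennal and 42 wing tags in the genome mapping, where it was not enriched. FBgn0197927 had 150 eye-antennal and 0 wing tags in the gene mapping but 65 eye-antennal and 63 wing tags in the genome mapping. For FBgn0198612 the gene mapping gave 12724 eye-antennal and 42103 wing tags. The genome mapping gave it 328 eye-antennal and 629 wing tags, and it was not enriched there. alphaTub85E had 46 eye-antennal and 5 wing tags in the gene mapping but 35782 eye-antennal and 47632 wing tags in the genome mapping, close to the 35796 eye-antennal and 47636 wing tags of its near-identical relative alphaTub84B.

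**Figure D5:**
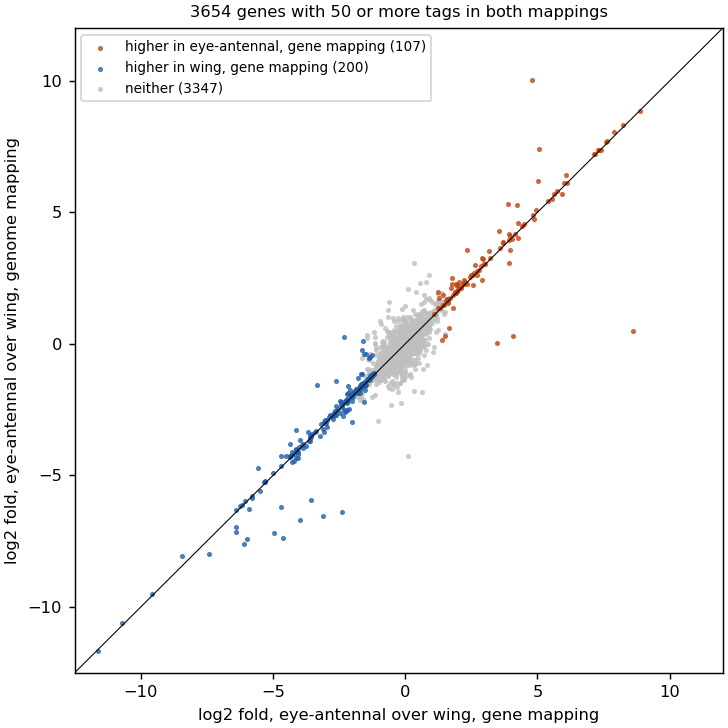
Log2 fold (eye-antennal over wing) in the gene mapping on the x axis and in the genome mapping on the y axis for the 3654 genes measured in both. Most genes lie on the diagonal, with a median absolute difference of 0.080.

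The same comparison was available in D. melanogaster and D. yakuba, each with 1 library for each disc. At the same minimum of 50 tags, 323 (5.64%) of 5725 D. melanogaster genes and 239 (4.02%) of 5941 D. yakuba genes were eye-antennal-enriched, and 447 (7.81%) and 143 (2.41%) were wing-enriched. Of the 221 D. virilis eye-antennal genes 74 were measured in all 3 species and 28 were enriched in the eye-antennal disc of each, while 14 of 126 wing-enriched genes measured in all 3 were wing-enriched in each. Those 28 included ey, toy, eya, so, Optix, danr, ru, rho, peb, pnt, scrt, Appl, nSyb, Nrt, Mmp2, E(spl)mdelta-HLH and E(spl)mgamma-HLH. The 14 wing-side genes included Antp and Dr but also the fat body genes Lsp1gamma, Obp99b and Fbp1. ey had log2 folds of 8.87 in D. virilis against 5.79 and 4.94 in D. melanogaster and D. yakuba, and toy had 7.58 against 7.57 and 3.72 in that order. Some genes went the other way: 3 eye-antennal-enriched and 9 wing-enriched D. virilis genes were enriched in the opposite disc in D. melanogaster, and 2 and 8 in D. yakuba. Among genes named above these were Tm2, Mlc2 and ara in D. melanogaster and Cyp6d5 and epsilonTry in D. yakuba. Whether the discs differ by more in one species than in another was not tested.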

How the data were processed

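Transcripts of D. virilis eye-antennal and wing imaginal discs were measured by NlaIII tag profiling, with 1 library for each disc. The deposited files hold counts of tags per genomic position with the gene assigned to it, per the file headers, with no normalization. Bowtie 0.12.1 is named in the submitters' processing notes. Not given in the sources used here are the genome build, the mismatches allowed and what was done with ambiguous tags. The files have no strand column, so antisense and overlapping genes cannot be told apart, and near-identical paralogs may exchange tags.

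Counts in the gene mapping were summed for each D. virilis gene and named through the D. melanogaster identifier in the same file. Of 13446 genes with a tag, 10317 had such a partner and 9519 a symbol in the reference annotation. Positions with no gene, 3.09% of eye-antennal and 1.24% of wing tags, were left out. Library sizes were scaled by TMM (edgeR 4.0.16 in R 4.3.3), with factors of 1.09 for the eye-antennal and 0.918 for the wing library. Folds and exact conditional binomial (Clopper-Pearson) 95% intervals were computed in Python 3.11.15 with scipy 1.17.1, and log2 folds with 0.5 tags added to each count. The procedure was tested on simulated data. The comparison covers genes reaching 50 tags in the sum of both libraries, and enrichment means that the end of the interval closest to 1 reached 2-fold. With 1 library in each group no test was made.

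The comparison, the 72 gene lists and the rule for naming genes were chosen with earlier results of these data known. A further 5 lists (serpins, tetraspanins, juvenile hormone, amino acid metabolism and neprilysins) were added after the values had been seen. In the lists 28 names found no match. Genes whose D. melanogaster partner has no symbol could enter no list, so the list counts leave them out whatever their function. Genes were named when among the 30 largest conservative folds or the 10 largest differences in CPM (tags per 1000000 of the scaled library) in each direction, or as list members with up to 6 of the largest conservative folds in each direction and up to 3 with the most tags; other list members, and neighbours in a run, were named after their values were seen. Alternatives were scaling by total gene tags, DESeq2 1.42.0 size factors and TMM without tissue lists, other minimum counts and fold bounds, the genome mapping, sums per D. melanogaster gene, the most used position alone or left out, and, added after seeing the data, positions with 1 tag left out.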

Additional observations from a re-analysis of the deposited data

Results flagged for a closer look

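Positions with no gene assigned held 3.09% of the D. virilis eye-antennal tags and 1.24% of the wing tags, at 29479 and 4920 positions. These tags entered no comparison.

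For 6 genes that the text could name, D. virilis and another species were enriched in opposite discs. The difference between species was not tested, since each species has 1 library for each disc. Against D. melanogaster these were the muscle genes Mlc2 and Tm2, with log2 folds (eye-antennal over wing) of -1.87 and -2.64 in D. virilis against 1.63 and 1.80 in D. melanogaster. The splicing factor gene Sf3b3 had -1.19 in D. virilis and 1.34 in D. melanogaster, and the Iroquois gene ara had -2.73 and 1.71. Against D. yakuba, Cyp6d5 had a log2 fold of 7.44 in D. virilis and -2.79 in D. yakuba, and the trypsin gene epsilonTry had -8.44 and 4.09.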

How the results depend on the processing

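No enriched gene was enriched in the opposite disc under any alternative run. The sign of the log2 fold changed for 2 enriched genes in the genome mapping and for 10 with the most used position left out. The counts themselves moved with the minimum and the rule. Eye-antennal-enriched genes numbered 599 at a minimum of 10 tags, 707 at 1 tag, 72 at 200 tags, 141 in the genome mapping, 41 with the most used position left out, 116 with a bound of at least 4-fold and 373 with a fold of at least 2 whatever its interval. Wing-enriched genes numbered 412 at a minimum of 10 tags, 412 at 1 tag, 193 at 200 tags, 59 with the most used position left out, 149 with a 4-fold bound and 684 with a fold of at least 2 whatever its interval. Lists with more eye-antennal-enriched than wing-enriched members numbered 26, against 15 at 200 tags and 10 with the most used position left out. Genes that could be named changed direction, with a call in either setting, only where 1 position was used or dropped: CCT2 had a log2 fold of 2.04 at its most used position alone, and with that position left out RpL36 had 0.57, RpS16 -0.80, Galphaq 1.73 and E(spl)m8-HLH -0.11. The cause was not tested. Of the 694 genes that could be named, 324 kept direction and call with the most used position left out, 22 kept the direction only, pnt, sca, neur, disco, Ser, tsh, Tm2, Mlc2, Loxl1, Fbp1, Tpi, Pepck1 and RpS23 among them, and 337 fell under 50 tags. Scaling by total gene tags ended 13 of their calls, and the genome mapping 11. No paired analysis was possible because each disc has 1 library and the labels give no replicate numbers, and for the same reason no replicate could be left out. With 1 library for each disc, disc, dissection and library cannot be told apart, and intervals cover counting error only.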

Other observations

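Of 26 DIP and dpr genes with a tag, which encode cell surface proteins that pair neurons with their partners, 0 reached 50 tags. At a minimum of 10 tags, 8 of 13 were eye-antennal-enriched and 0 wing-enriched, with the 26 genes summing to 346 eye-antennal and 81 wing tags. Of 4 ion channel genes of excitable cells measured at 50 tags, 0 were eye-antennal-enriched and 1 wing-enriched, nAChRbeta3, whereas at 10 tags 8 of 13 were eye-antennal-enriched and 1 wing-enriched. Brain and central nervous system markers gave 2 of 4 and 0 at 50 tags and 10 of 12 and 0 at 10 tags. At 10 tags 6.76% of all 8864 genes were eye-antennal-enriched and 4.65% wing-enriched. The part of brain RNA in these values was not tested.

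Odorant, gustatory and ionotropic receptor genes gave 9 measured members of 97 with a tag, 0 of them eye-antennal-enriched and 1 wing-enriched, Ir54a with 0 eye-antennal and 99 wing tags. The most used position of Ir54a lay 369 bases from that of the storage protein gene Lsp2, which had 6352 wing tags. The files have no strand column, and whether the tags counted for Ir54a come from Lsp2 was not tested.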
